A study of Homo sapiens with 12 samples.

Results

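The genes described here are the protein-coding genes named RNF, TRIM or USP, most of which encode ubiquitin ligases or deubiquitinases. They were chosen by name alone: a gene entered when its identifier in the authors' deposited table mapped to a symbol with 1 of these 3 beginnings. The authors' deposited table lists 62 of them among 5759 genes, made up of 27 RNF, 17 TRIM and 18 USP genes. RNA was sequenced from MOLT4, an established human T lymphoblast line from acute lymphoblastic leukaemia, with a wild-type genotype in every group. The 12 samples formed 4 groups of 3, which received DMSO (the vehicle) for 6 h, 0.1 µM of compound 955 for either 1 h or 6 h, or 1 µM of SNS-032 during 6 h. SNS-032 inhibits several cyclin-dependent kinases, including CDK9, which drives transcription, and 955 is a conjugate of piperlongumine that carries SNS-032 as its target-binding part. The comparison of 955 with SNS-032 addresses how the conjugate acts beside its own binding part, but their doses differ, and vehicle-treated cells were collected at 6 h alone.

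Ubiquitin is attached to proteins by a relay of activating (E1), conjugating (E2) and ligating (E3) enzymes, and the ligase picks the substrate. RING ligases hold a zinc-binding RING fold that brings a loaded E2 to the substrate. RNF genes are a mixed group named for that fold, whereas TRIM proteins add B-box and coiled-coil parts behind it. Most USP proteins are cysteine proteases that take ubiquitin off again. A degrader such as 955 depends on this machinery, which makes the transcripts of ligases and deubiquitinases a readout of interest in treated cells.

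The authors' deposited table holds comparisons with DMSO, so values per sample were not analysed here and the depth of each sample is unknown. The labels do not say that replicates came from separate cultures, so p-values measure only the spread between these samples. Each gene of the table was listed for a change in at least 1 comparison, and shares at 6 h follow from that. Among all human genes with these names, 31.0% of RNF genes (27 of 87), 21.5% of TRIM genes (17 of 79) and 23.1% of USP genes (18 of 78) were listed, against 26.3% of all protein-coding genes (5270 of 20056). In the authors' deposited table the average level of the 62 genes, which covers all samples, ran from 0.23 to 9.52 log2 CPM (a log scale of counts adjusted to library size), with a median of 4.44 against 4.15 for all listed genes. Of 16 T lymphoblast markers, 6 were listed (CD2, CD3G, CD4, CD7, DNTT and RAG2), at average levels of 3.74 to 7.6 log2 CPM in the authors' deposited table. Of 4 myeloid markers, 0 were listed.

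A search of the encoded proteins for a RING spacing of cysteines and histidines, or for the cysteine box of the USP fold, placed 42 genes in a class of RING ligases and 15 in a class of deubiquitinases. The RING class held all 27 RNF genes and 15 TRIM genes. Both classes rest on names and sequence patterns alone, and activity on ubiquitin was not tested. In 5 genes the searched pattern was not found. They were TRIM46, which organises microtubules in axons, TRIM66, a transcription cofactor, USP47, a deubiquitinase acting on DNA polymerase beta, USP54, long held to lack protease activity, and USP6NL, a GTPase-activating protein for Rab GTPases that is named after a USP gene.

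The sequence just before the transcription start is shown for 6 genes, because the effects below are effects on transcript levels. USP27X and USP38 fell within 1 h, and TRIM21 and TRIM47 were among the largest falls at 6 h. TRIM3 and USP28 were among the rises at 6 h on the deposited scale (the authors' own scaling between libraries, which is not stated). Each is the 150 bases upstream of the RefSeq start, 5′ to 3′ on the gene's own strand, in build GRCh38.p14, and capitals mark the GC box (GGGCGG, or CCGCCC on the other strand).
USP27X: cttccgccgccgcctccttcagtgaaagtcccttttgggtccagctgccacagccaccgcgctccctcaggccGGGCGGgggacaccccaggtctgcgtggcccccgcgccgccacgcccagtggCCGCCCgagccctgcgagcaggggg
USP38: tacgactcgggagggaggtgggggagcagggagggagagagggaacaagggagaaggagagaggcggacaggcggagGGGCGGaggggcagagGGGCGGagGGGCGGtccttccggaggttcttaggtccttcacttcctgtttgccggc
TRIM21: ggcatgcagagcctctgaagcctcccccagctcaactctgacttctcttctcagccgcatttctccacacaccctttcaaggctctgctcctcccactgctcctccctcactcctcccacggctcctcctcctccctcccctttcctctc
TRIM47: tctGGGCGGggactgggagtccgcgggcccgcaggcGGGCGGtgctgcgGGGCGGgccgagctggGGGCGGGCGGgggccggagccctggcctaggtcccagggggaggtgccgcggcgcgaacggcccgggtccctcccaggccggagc
TRIM3: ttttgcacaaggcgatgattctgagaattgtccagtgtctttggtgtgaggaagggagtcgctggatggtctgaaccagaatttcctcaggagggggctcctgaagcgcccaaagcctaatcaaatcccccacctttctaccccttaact
USP28: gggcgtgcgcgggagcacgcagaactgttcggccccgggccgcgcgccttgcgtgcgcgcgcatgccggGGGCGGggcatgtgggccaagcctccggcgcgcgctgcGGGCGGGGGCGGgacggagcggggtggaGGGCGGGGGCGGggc
These stretches are chrX:49879334-49879483 (plus strand) for USP27X, chr4:143184767-143184916 (plus) for USP38, chr11:4393703-4393852 (minus) for TRIM21, chr17:75878582-75878731 (minus) for TRIM47, chr11:6474460-6474609 (minus) for TRIM3 and chr11:113875573-113875722 (minus) for USP28. The USP28 and TRIM47 stretches each held 5 GC boxes, of which 1 pair overlaps in TRIM47, at 83.3% G and C, USP38 held 3 and USP27X held 2. TRIM21 and TRIM3 held none. Over 250 upstream bases, 45 of the 62 genes had a RefSeq promoter and 64.4% of those held a GC box, against 56.0% of 15843 protein-coding promoters. The CCAAT box (CCAAT or ATTGG) was in 44.4% against 34.5%, the E-box (CACGTG) in 11.1% against 7.8%, and the TATA box (TATAAA or TTTATA) in 6.7% against 9.2%. A match of letters is a description and not a binding site.

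In the authors' deposited table, 7 of the 62 genes passed after 1 h of 955. Passing the threshold means an FDR under 0.05 together with a log2 fold change of 1 or more in either direction. All 7 fell and 0 rose. The falls were 11.3% of the 62 genes, where 7.71% of all listed genes were lower and 0.729% higher in the authors' deposited table. Of the 42 RING ligases 4 fell, and of the 15 deubiquitinases 3 fell. The median log2 fold change in the authors' deposited table was -0.32 for RING ligases and -0.21 for deubiquitinases, against -0.05 for all listed genes. In these bulk libraries, fewer cells with a transcript and less of it per cell cannot be told apart, and for 955 at 1 h, treatment and time in culture cannot be told apart.

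Among the deubiquitinases, USP27X had the largest 1 h fall in the authors' deposited table, at -2.10 (implied standard error 0.46, FDR 0.00664). USP27X encodes a relative of USP22 that can act on ubiquitin of histone H2B, from a gene with 1 exon in its longest transcript. USP42, which can deubiquitinate p53, was at -1.38 (0.25, FDR 0.00109) and USP38 at -1.16 (0.20, FDR 0.000641) in the authors' deposited table. The implied standard error is the fold change over the square root of the deposited F statistic, so it reflects replicate spread as the authors modelled it.

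Among the ligases, TRIM13 and TRIM11 fell most at 1 h. TRIM13, a ligase anchored in the endoplasmic reticulum, was at -1.54 (0.21, FDR 6.19e-05) in the authors' deposited table. TRIM11, known for a part in clearing misfolded proteins, was at -1.48 (0.17, FDR 1.31e-05) in the authors' deposited table. TRIM68, a coactivator of the androgen receptor, was at -1.09 (0.22, FDR 0.00279) and RNF25, which acts with RNF14 on stalled ribosomes, at -1.06 (0.19, FDR 0.00106) in the authors' deposited table. These falls were 5 or more standard errors for TRIM11, TRIM13, RNF25, USP38 and USP42, and fewer for USP27X and TRIM68.

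The early genes did not share 1 course to 6 h. USP38 went from -1.16 to -2.84 and USP42 from -1.38 to -2.65 in the authors' deposited table, and the difference between the times was -1.68 (standard error 0.20, adjusted p 1.15e-07) and -1.27 (0.25, adjusted p 9.9e-05) in an approximate contrast. TRIM11 was nearer to the vehicle level at 6 h, at -0.57 in the authors' deposited table, with a difference of 0.92 (0.17, adjusted p 4.75e-05) that missed the bound of 1. It was listed through its 1 h value alone, the only 1 of the 62 genes for which this was so. USP27X, at -2.11 at 6 h in the authors' deposited table, had a difference of 0.00 between the times (0.46, adjusted p 0.996). TRIM13, TRIM68 and RNF25 moved by less than 1 as well. These courses are relative to the library total, and scaled on the mRNAs encoded by mitochondrial DNA the course of TRIM11 turned, from -2.16 at 1 h to -2.64 at 6 h, and USP27X went from -2.78 to -4.18.

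**Figure D1:**
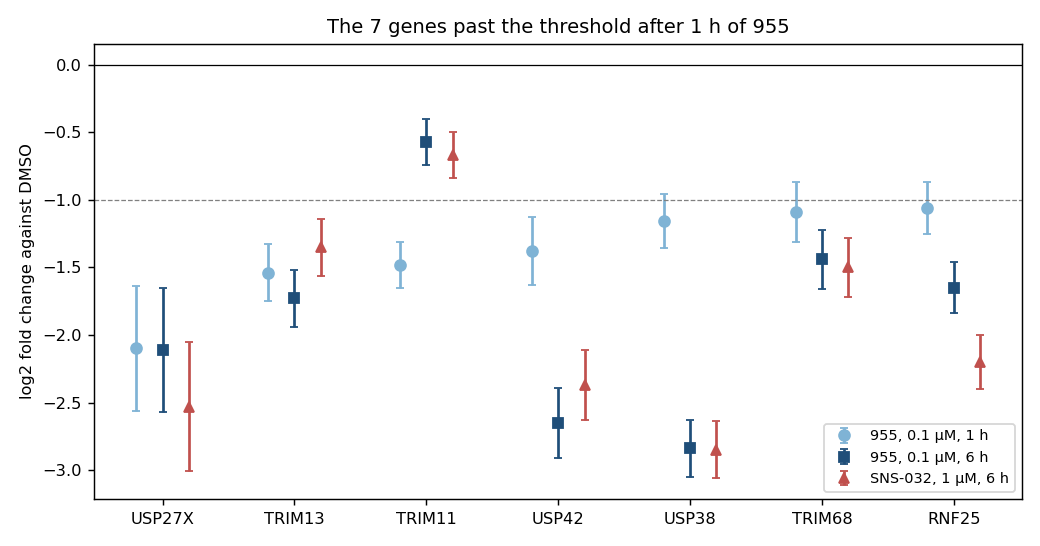
Log2 fold change against DMSO (vertical axis) for the 7 genes that fell within 1 h of 955, with implied standard errors as bars. Symbols separate 955 at 1 h from 955 and SNS-032 after 6 h. USP38 and USP42 lie lower at 6 h than at 1 h, and TRIM11 lies higher, at -0.57 and -0.67 at 6 h. On the scale of mitochondrial mRNAs TRIM11 would lie lower at 6 h, at -2.64 and -3.01, than at 1 h, at -2.16.

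After 6 h, most of the 62 genes were past the threshold with each compound, in both directions. With 955, 20 were higher (32.3%) and 35 lower (56.5%) in the authors' deposited table, where 35.2% of all listed genes were higher and 50.1% lower. With SNS-032, 21 were higher (33.9%) and 40 lower (64.5%) in the authors' deposited table, against 37.8% and 52.5% of all listed genes. These shares are near those of the table as a whole. Both comparisons use the same DMSO samples, so their values are given side by side and their likeness is not tested.

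The direction of the rises depends on the scaling. The 13 mRNAs encoded by mitochondrial DNA rose by a median log2 of 0.67 after 1 h of 955, 2.07 after 6 h and 2.35 after SNS-032 in the authors' deposited table. Scaling on them moved the median of all listed genes from -0.05 to -0.73, from -1.03 to -3.10 and from -1.07 to -3.41. Of the 20 genes higher with 955 at 6 h, 16 then had a negative value and 0 stayed past the threshold, and the split of genes past it became 0 higher and 46 lower. Over all 5759 listed genes that split became 120 higher and 3813 lower, from 2026 and 2885. Of the 21 higher with SNS-032, 18 turned negative, and the split became 1 higher (RNF215) and 51 lower. All listed genes gave 91 higher and 4123 lower there, from 2175 and 3021. At 1 h the split became 0 higher and 25 lower, and over all listed genes 10 and 1512, from 42 and 444. The loss of rises was thus shared by the listed genes as a whole. Every rise named below is on the deposited scale. Of the rises against DMSO among the 62 genes, only that of RNF215 with SNS-032 kept its call under the mitochondrial scaling. Falls could only move further below 0, since a positive value was subtracted in each comparison, so the scaling did not check their direction.

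**Figure D2:**
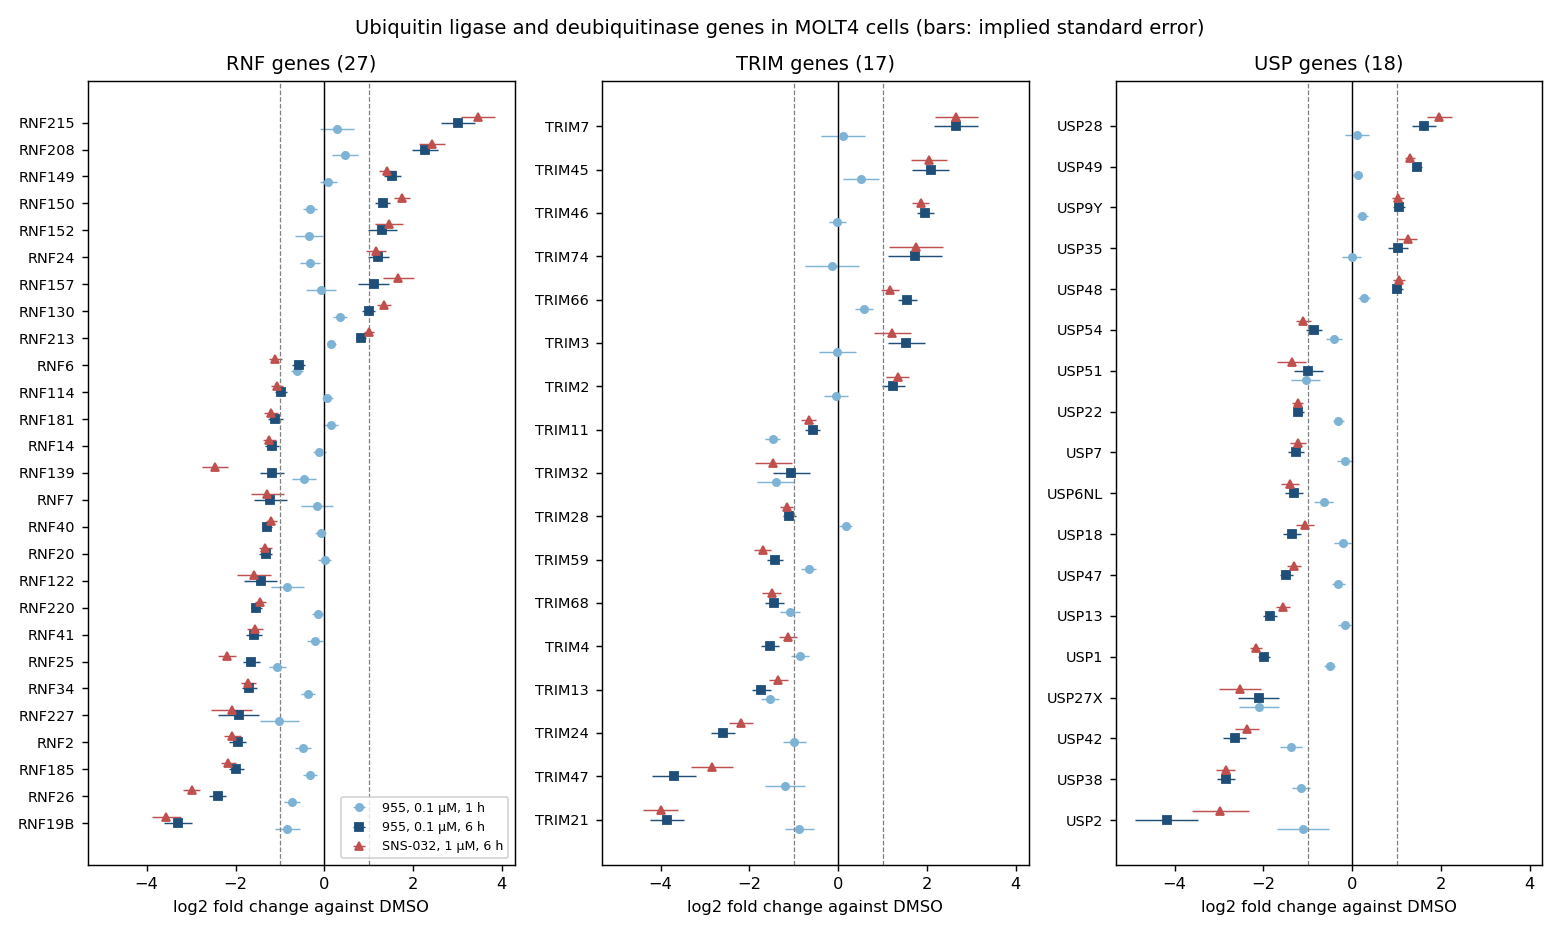
Log2 fold change against DMSO (horizontal axis) of the 27 RNF, 17 TRIM and 18 USP genes, ordered by the value for 955 at 6 h, with implied standard errors as bars and dashed lines at the bound of 1. Values of 955 and SNS-032 at 6 h lie close together for most genes, RNF139 stands apart, and values at 1 h lie nearer to 0. On the scale of mitochondrial mRNAs, 16 of the 20 rises with 955 and 18 of the 21 with SNS-032 would lie below 0.

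RING ligases and deubiquitinases had medians close to each other in all 3 comparisons. With 955 at 6 h, 13 of 42 RING ligases were higher and 24 lower in the authors' deposited table, and 5 of 15 deubiquitinases were higher and 9 lower. With SNS-032, 14 and 27 RING ligases and 5 and 10 deubiquitinases were higher and lower in the authors' deposited table. Median log2 fold changes in the authors' deposited table were -1.18 and -1.26 for RING ligases and deubiquitinases with 955 at 6 h, and -1.22 and -1.23 with SNS-032. The corresponding medians over all listed genes were -1.03 and -1.07. The quartiles with 955 at 6 h were -1.64 and 1.19 for RING ligases and -2.05 and 1.02 for deubiquitinases in the authors' deposited table, so the class medians differ by far less than the spread within a class. Few values lay near 0 at 6 h, because genes were listed for passing a bound.

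**Figure D3:**
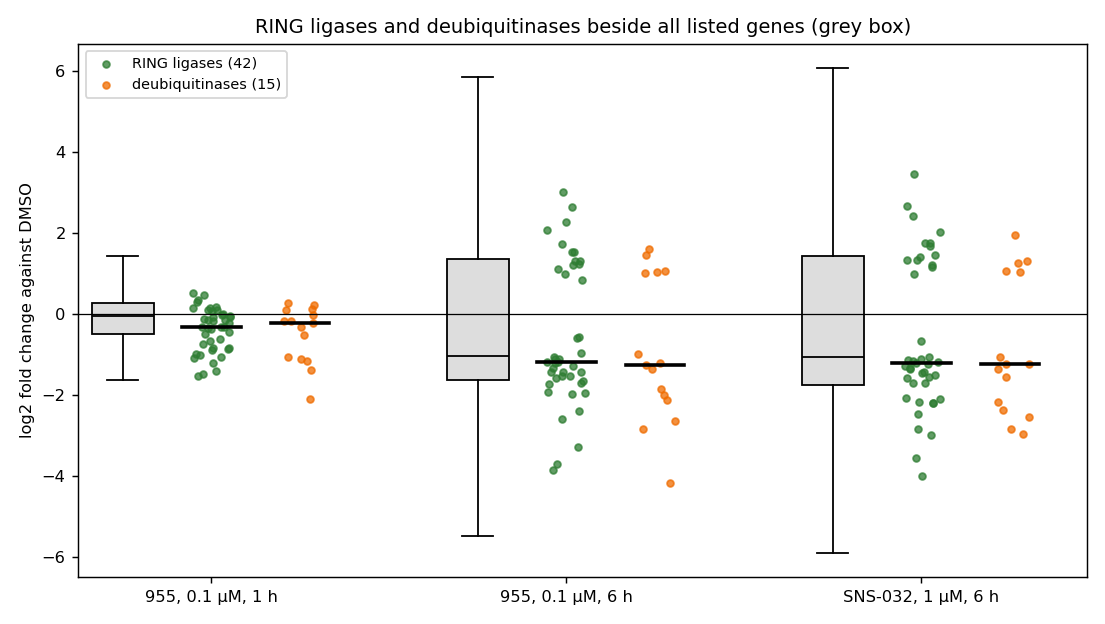
Log2 fold change against DMSO (vertical axis) in the 3 comparisons. The grey box gives the median and quartiles of all 5759 listed genes with whiskers to 1.5 times the box height, points are the 42 RING ligases and 15 deubiquitinases, and black bars are class medians. The class medians at 6 h lie between -1.18 and -1.26. On the scale of mitochondrial mRNAs the class medians at 6 h would lie between -3.25 and -3.58, and those of all listed genes at -3.10 and -3.41.

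Of 9 RNF ligases of chromatin and DNA damage 3 were listed, and these 3 fell at 6 h with each compound. Their medians in the authors' deposited table were -1.32 and -1.33, and 50.1% and 52.5% of all listed genes were lower. RNF20 and RNF40, which together place ubiquitin on histone H2B, were at -1.32 (0.15) and -1.29 (0.12) with 955 and in the SNS-032 columns at -1.33 and -1.19 in the authors' deposited table. RNF2, the catalytic ligase of Polycomb complex PRC1 acting on histone H2A, was at -1.95 (0.19) and -2.07 (0.19) in the authors' deposited table. The 3 genes had 1 h values of 0.01, -0.08 and -0.49 in the authors' deposited table, and none of these was past the threshold.

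Of 14 deubiquitinases of chromatin and DNA repair, 8 were listed. With 955 at 6 h, 3 of the 8 were higher and 4 lower in the authors' deposited table, and with SNS-032 3 were higher and 5 lower, where the shares over all listed genes were 35.2% and 50.1% with 955 and 37.8% and 52.5% with SNS-032. USP22, the H2B deubiquitinase of the SAGA complex, was at -1.21 (0.13) with 955 and -1.23 (0.13) with SNS-032 per the authors' deposited table. Its relative USP51 was at -0.99 (0.33), just under the bound, and at -1.36 (0.33), and USP27X was at -2.11 (0.46) and -2.53 (0.48) in the authors' deposited table. So the transcripts of the H2B ligase pair and of the USP22 relatives were all lower than in DMSO, with USP51 short of the bound with 955.

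USP1, which acts on FANCD2 and PCNA in DNA repair, was at -1.99 (0.13, FDR 1.6e-11) and -2.17 (0.13, FDR 3.31e-12) in the authors' deposited table. USP7, known for stabilising MDM2 and p53, was at -1.26 (0.18) and -1.23 (0.18) in the authors' deposited table. The 3 that rose on the deposited scale were USP28, USP49 and USP48. USP28, which opposes the turnover of MYC, was at 1.62 (0.27, FDR 0.000275) and 1.96 (0.28, FDR 4.77e-05) in the authors' deposited table, USP49, another H2B deubiquitinase, at 1.46 and 1.30, and USP48 at 1.02 and 1.06. On the mitochondrial scale these 3 were below 0. Of the 4 USP genes known to stabilise MYC, USP28 and USP22 were listed and they lay on opposite sides of 0. None of the 7 USP genes of the proteasome, endosome and organelles was listed.

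Among other USP genes, the largest falls at 6 h were USP38 at -2.84 (0.21, FDR 1.48e-10) with 955 and -2.85 (0.21, FDR 1.06e-10) with SNS-032, and USP42 at -2.65 (0.26) and -2.37 (0.26), in the authors' deposited table. USP2, which can stabilise cyclin D1, had lower values still, -4.18 (0.71) and -2.97 (0.65) in the authors' deposited table, but its average level of 0.81 log2 CPM is low and it was named after its values were seen. USP35, at 1.03 and 1.25, and USP9Y, the Y-linked copy of USP9X, at 1.06 and 1.03, rose on the scale of the authors' deposited table. USP9X is a near-identical copy, and how reads were split between them is not stated. USP47 was at -1.48 and -1.31, USP6NL at -1.31 and -1.40, and USP54 at -0.86, under the bound, and -1.10 in the authors' deposited table.

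Of 22 membrane-spanning RNF ligases 9 were listed, and with each compound 5 were higher and 4 lower at 6 h in the authors' deposited table. Over all listed genes 35.2% were higher and 50.1% lower with 955, and 37.8% and 52.5% with SNS-032. The 5 that were higher on the deposited scale were RNF130, RNF149, RNF150, RNF152 and RNF24. Their values ran from 1.00 to 1.53 with 955 and from 1.16 to 1.75 with SNS-032 per the authors' deposited table. RNF149 and RNF150 belong with RNF130 to a family of protease-associated-domain ligases of endosomal membranes, and RNF152 sits in the lysosomal membrane, where it restrains mTORC1. The 4 that fell were RNF26, RNF185, RNF139 and RNF122. RNF26, an endoplasmic reticulum ligase that positions endosomes, was at -2.40 (0.19, FDR 2.73e-09) and -2.99 (0.20, FDR 1.36e-10) in the authors' deposited table. RNF185, which acts in degradation from the endoplasmic reticulum, was at -1.98 (0.17) and -2.16 (0.17), and RNF122 at -1.43 (0.37) and -1.59 (0.38) in the authors' deposited table.

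RNF215 and RNF208, which were not in the lists of roles used here, had the highest values of the RNF genes. RNF215 was at 3.02 (0.38, FDR 7.9e-07) and 3.46 (0.39, FDR 1.09e-07), and RNF208 at 2.27 (0.30) and 2.43 (0.30), in the authors' deposited table. On the mitochondrial scale RNF208 was at 0.20 and 0.08, and RNF215 at 0.95 with 955, under the bound. RNF19B, a RING-between-RING ligase first described in natural killer cells, had the lowest value of the RNF genes, at -3.29 (0.32, FDR 9.78e-09) and -3.56 (0.32, FDR 3.32e-09) in the authors' deposited table. The other listed RING-between-RING ligase, RNF14, was at -1.18 and -1.24 in the authors' deposited table. RNF114, a ligase that covalent ligands have recruited in other degraders, was at -0.97 (0.13), just under the bound, with 955, and at -1.06 (0.13) with SNS-032 per the authors' deposited table. It was named after its values were seen.

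TRIM genes held both large falls and large rises at 6 h. TRIM21, the cytosolic antibody receptor and the only 1 listed of 13 antiviral TRIM genes, was at -3.86 (0.38, FDR 9.46e-07) with 955 and -4.00 (0.39, FDR 6.86e-07) with SNS-032 per the authors' deposited table. TRIM47 was at -3.70 (0.50) and -2.84 (0.48) in the authors' deposited table. Of the 4 transcription cofactors, 3 were listed: TRIM24, a bromodomain cofactor, at -2.59 (0.27) and -2.20 (0.27), TRIM28, the corepressor of KRAB zinc finger proteins, at -1.10 (0.15) and -1.16 (0.15), and TRIM66 at 1.56 (0.21) and 1.17 (0.21), in the authors' deposited table. So 2 fell and TRIM66 rose on the deposited scale. TRIM7, a ligase that binds glycogenin, was at 2.65 (0.49) and 2.66 (0.49), TRIM45 at 2.08 (0.41) and 2.04 (0.41), and TRIM46 at 1.96 (0.19) and 1.86 (0.19), in the authors' deposited table. On the mitochondrial scale these 3 lay between -0.48 and 0.57.

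Some of these genes share sequence with neighbours, and whether reads were counted by strand is not given in the sources used here. Exons of 27 of the 62 genes overlap those of another gene in GENCODE 29, 25 of them on the opposite strand, and reads of such pairs are then uncertain. In 5 cases the neighbour was itself listed. TRIM66 overlaps the ribosomal protein gene RPL27A, whose average level is 10.2 log2 CPM against 4.79 for TRIM66 and whose values at 6 h were 1.12 and 1.55 in the authors' deposited table. The part of those reads in the TRIM66 value was not tested. RNF25, RNF24 and USP35 went the other way from their partners STK36 (1.00 with 955 at 6 h), PANK2 (-0.70) and KCTD21 (-2.00) in the authors' deposited table. RNF220 and its partner TMEM53 were both lower.

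The 2 compounds were compared directly in an approximate contrast, 955 at 0.1 µM minus SNS-032 at 1 µM at 6 h, so dose and compound cannot be told apart. Adjusted over all 5759 listed genes, 1 of the 62 genes was past the threshold, higher with 955, and 0 were lower, where 0.851% of all listed genes were higher and 0.26% lower. That gene was RNF139 (TRC8), a sterol-responsive ligase of the endoplasmic reticulum membrane. RNF139 was at -0.45 (0.27) after 1 h of 955, -1.18 (0.27, FDR 0.00241) after 6 h and -2.47 (0.29, FDR 1.74e-06) with SNS-032 per the authors' deposited table. It fell in both, by less with 955, and the difference was 1.29 (standard error 0.28, 95% interval 0.70 to 1.88, adjusted p 0.0194).

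For the other genes the contrast gave no call, and the intervals say how large a difference could still be. The 95% interval lay within 1 log2 unit of 0 on either side in 50 of the 62 genes, 33 of 42 RING ligases and 12 of 15 deubiquitinases. USP38 had a difference of 0.01 (-0.42 to 0.45), USP28 one of -0.34 (-0.93 to 0.26) and TRIM21 one of 0.14 (-0.69 to 0.96). RNF215 at -0.44 (-1.25 to 0.36) and USP2 at -1.21 (-2.62 to 0.21) were among the 12 whose intervals reached past 1. Unadjusted intervals left out 0 for 6 genes (RNF130, RNF139, RNF150, RNF25, RNF26 and RNF6), of which RNF6 was at 0.52 (0.22 to 0.82) with an adjusted p of 0.0519. Among 62 unadjusted intervals, some leave out 0 without any difference, and only RNF139 was called after adjustment. Neither the intervals within 1 unit nor those leaving out 0 were counted over all listed genes, so these counts have no background share.

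**Figure D4:**
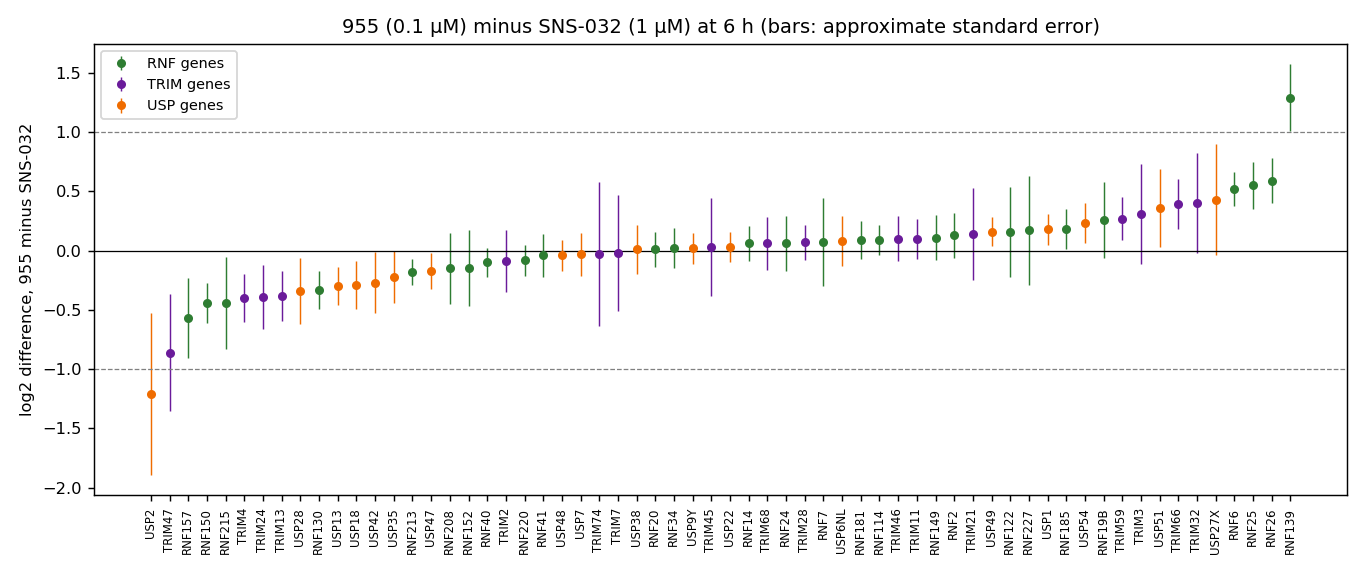
Log2 difference of 955 (0.1 µM) minus SNS-032 (1 µM) at 6 h (vertical axis) for each of the 62 genes in order, with the approximate standard error as bars and dashed lines at the bound of 1. RNF139, at 1.29, is the only gene past the threshold, and USP2, at -1.21, has a wide error. Scaling on mitochondrial mRNAs would raise each value by 0.27.

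Between 1 h and 6 h of 955 at the same dose, 41 of the 62 genes differed in an approximate contrast, 16 higher and 25 lower at 6 h. Vehicle was collected at 6 h alone, so exposure to 955 and time in culture cannot be told apart in this contrast. The background was 27.0% higher and 35.6% lower over all listed genes, and the 62 genes gave 25.8% and 40.3%. On the mitochondrial scale the split became 2 higher (RNF215 at 1.33 and TRIM7 at 1.14) and 40 lower. That split was not counted over all listed genes. RING ligases gave 12 higher and 17 lower, and deubiquitinases 3 higher and 7 lower. The largest differences were -3.07 (0.65) for USP2, -2.98 (0.36) for TRIM21, -2.50 (0.47) for TRIM47 and -2.47 (0.30) for RNF19B on the low side, and 2.73 (0.38) for RNF215 and 2.53 (0.49) for TRIM7 on the high side. USP51 was already at -1.05 (0.32) at 1 h in the authors' deposited table, with an FDR of 0.0704. It differed by 0.06 between the times on the deposited scale.

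Genes with rises at 6 h had a longer median span than those with falls. The median span from first to last base in GENCODE 29 was 74.2 kb for the 20 genes higher with 955 on the deposited scale. It was 27.5 kb for the 35 lower. The quartiles were 22.3 and 105.3 kb for the higher genes, and 9.5 and 50.1 kb for the lower. With SNS-032 the medians were 77.7 and 27.0 kb. All listed protein-coding genes had 29.3 and 24.2 kb with 955, and 29.3 and 22.2 kb with SNS-032, so the gap was narrower there. The 7 genes that fell at 1 h had a median of 13.2 kb, against 16.1 kb for all listed protein-coding genes lower at 1 h. These are descriptions with no test, the quartiles overlap, and short genes such as RNF208 (1.34 kb, the shortest of the 62 genes that rose) were among the rises.

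**Figure D5:**
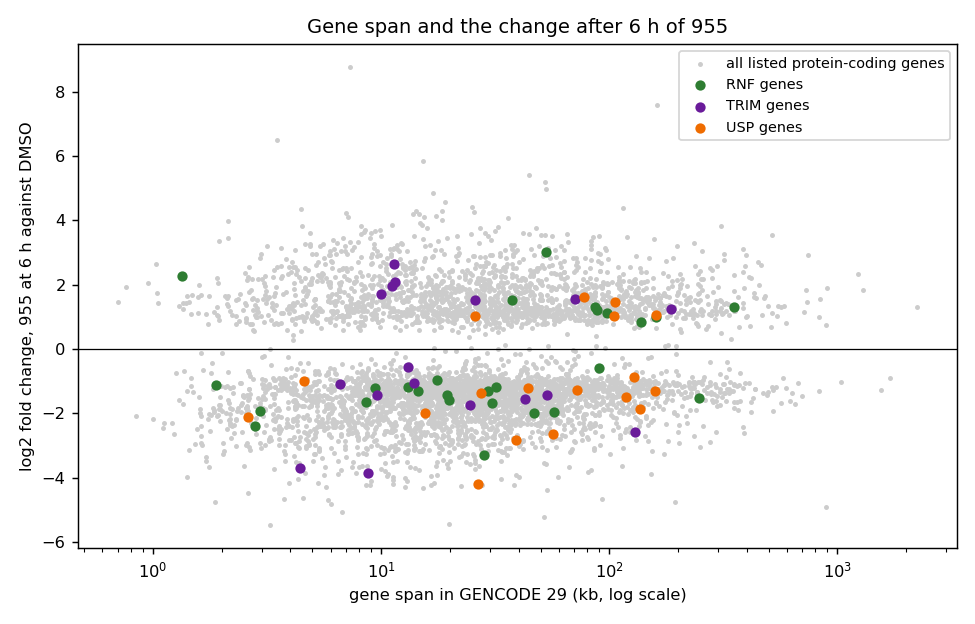
Log2 fold change with 955 at 6 h (vertical axis) against gene span in kb (horizontal, log scale) for RNF, TRIM and USP genes over all listed protein-coding genes in grey. Genes above 0 reach from 1.34 to 353.1 kb among those past the threshold. On the scale of mitochondrial mRNAs every value would be 2.07 lower.

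The rest of the ubiquitin pathway gives a setting for these genes. Of 34 E2 enzymes 19 were listed, and 16 of the 19 were lower and 1 higher with 955 at 6 h, and 17 lower and 1 higher with SNS-032, per the authors' deposited table, with medians of -1.35 and -1.42. Over all listed genes 50.1% were lower and 35.2% higher with 955, and 52.5% and 37.8% with SNS-032. UBE2C, the E2 of the anaphase-promoting complex, was at -3.09 (0.28) and -3.67 (0.28) in the authors' deposited table. Among the ubiquitin genes, RPS27A rose in the authors' deposited table, at 1.12 and 1.43, with negative values on the mitochondrial scale. The polyubiquitin gene UBB fell, at -1.72 and -2.04, in the authors' deposited table. Other RING ligases gave 8 higher and 10 lower of 21 with 955, and HECT ligases 2 and 4 of 7, in the authors' deposited table. Genes placed here under other deubiquitinase families, whether or not each removes ubiquitin, gave 6 and 4 of 12 in the authors' deposited table. UBA7 (1.40) was the only 1 listed of 8 E1 enzymes in the authors' deposited table. With SNS-032 the counts in the authors' deposited table were 8 and 11, 3 and 3, and 5 and 6. At 1 h, the other RING ligases MARCHF1 (1.32), CNOT4 (-1.27) and TRAF6 (-1.31) were past the threshold per the authors' deposited table.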

How the data were processed

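RNA of 12 MOLT4 samples was sequenced from libraries made with an mRNA kit, per the labels' protocols. The submitters' processing notes name DESeq2 and hg38 with no role. The aligner, the counter and its use of strand, and the filters are not given in the sources used here. Nor are the scaling between libraries and the tool behind the deposited values. Per the file headers, the authors deposited for each gene a log2 fold change for 3 comparisons with DMSO, an average level in log2 CPM, an F statistic (a score), a p-value and an FDR. A log2 base was inferred, since every gene reaches an absolute value of at least 1.001 in some comparison. Depth per sample is unknown, so no interval that needs it is given.

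Identifiers were matched to RefSeq (GRCh38.p14), where 5727 of 5759 matched. 4 noncoding genes with the same name beginnings were left out. The genes and lists were chosen with earlier results of these data known. Named genes were, per comparison and name group, the 3 largest rises and falls past the threshold with a level of at least 1 log2 CPM, all genes past it at 1 h or between compounds, the listed genes of the role lists, and those lacking their class pattern. Patterns were searched in translated GENCODE 29 coding sequences, where RefSeq proteins had been planned. Promoters shown have 1 RefSeq start and no annotated UTR in the window.

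Contrasts of treated groups took the difference of the deposited fold changes, an error that is the root mean square over both implied errors, a t distribution with the denominator degrees of freedom solved from the deposited F and p (11.47 to 23.32 over the 62 genes), and Benjamini-Hochberg adjustment over 5759 genes. The code was tested on simulated data. Alternatives were scaling on mitochondrial mRNAs (called at or below the largest deposited p-value with an FDR under 0.05), other thresholds, a level filter, the larger standard error and classes by name. Python 3.11.15, numpy 2.4.6, pandas 2.3.3, scipy 1.17.1 and matplotlib 3.10.9 were used.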

Additional observations from a re-analysis of the deposited data

Results flagged for a closer look

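RNF139 differed between the compounds at 6 h, with a log2 difference of 1.29 (955 minus SNS-032). Between 1 h and 6 h of 955, 41 of the 62 genes differed in the approximate contrast. These were 66.1% of the 62 genes, near the 62.7% of all listed genes that differed. Exposure to 955 and time in culture cannot be told apart in that contrast.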

How the results depend on the processing

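Scaling each comparison on the 13 mitochondrial mRNAs raised the count of genes past the threshold after 1 h of 955 from 7 to 25, and an FDR under 0.05 without the fold-change bound gave 12. Over all 5759 listed genes that scaling gave 10 higher and 1512 lower, from 42 and 444, and the FDR alone gave 958. The same scaling moved the median log2 fold change of RING ligases to -1.0 (955 at 1 h), -3.25 (955 at 6 h) and -3.56 (SNS-032), and that of deubiquitinases to -0.88, -3.33 and -3.58. Counts at 6 h stayed within 1.5 times of the main values in every alternative run: 46 to 61 for 955, 52 to 62 for SNS-032, and 39 to 54 for 6 h against 1 h, while the contrast of the compounds gave 1 gene, RNF139, throughout.

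Most rises turned negative under the mitochondrial scaling, which lowers every value, while 4 of 20 with 955 (RNF208, RNF215, TRIM45 and TRIM7) and 3 of 21 with SNS-032 (RNF208, RNF215 and TRIM7) stayed above 0. With 955 at 6 h the values became RNF130 -1.07, RNF149 -0.55, RNF150 -0.75, RNF152 -0.76, RNF157 -0.97, RNF24 -0.85, TRIM2 -0.83, TRIM3 -0.54, TRIM46 -0.11, TRIM66 -0.51, TRIM74 -0.35, USP28 -0.45, USP35 -1.04, USP48 -1.05, USP49 -0.61 and USP9Y -1.01. With SNS-032 they became RNF130 -1.01, RNF149 -0.93, RNF150 -0.59, RNF152 -0.89, RNF157 -0.67, RNF213 -1.34, RNF24 -1.19, TRIM2 -1.01, TRIM3 -1.13, TRIM45 -0.30, TRIM46 -0.48, TRIM66 -1.18, TRIM74 -0.59, USP28 -0.39, USP35 -1.10, USP48 -1.29, USP49 -1.04 and USP9Y -1.31. Between 6 h and 1 h of 955 the differences became RNF157 -0.21, TRIM2 -0.10, USP35 -0.35 and USP49 -0.05. Of the other gene values under this scaling, 111 kept their direction and call and 16 kept their direction without the call. The falls among the 111 could not turn, because that scaling lowered every value against DMSO and every difference between the times. With the larger standard error all 42 gene values kept theirs.

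No paired analysis was possible because the table holds comparisons and no values per sample, and leaving out replicates could not be run for the same reason. Depth per sample is unknown, and 3 of the 62 genes had an average level under 1 log2 CPM.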
